A study of Mus musculus with 23 samples.

Results

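The 10 genes described here encode the peptide hormones and granins of the pancreatic islet: *Ins1*, *Ins2*, *Gcg*, *Sst*, *Ppy*, *Pyy*, *Iapp*, *Chga*, *Chgb* and *Scg2*. They were taken by gene symbol from the 18512 symbols in the count tables, and all 10 were present and had enough counts to be among the 12195 genes tested. RNA-seq was performed on the head of the pancreas of 23 C57BL/6 mice of both sexes, aged 6 to 8 weeks in the labels: 8 were non-injured (baseline), and 8 and 7 were taken at day 7 and day 14 after injury. Injury was caused by caerulein, a cholecystokinin analog that overstimulates acinar cells, given intraperitoneally at 50 µg/kg in 8 hourly injections on each of 2 consecutive days. The labels name no sham-injected group, and all mice were of this strain with no transgene or deletion named.

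Islets are small endocrine clusters scattered through an exocrine gland. Beta cells release insulin together with islet amyloid polypeptide, alpha cells release glucagon, delta cells release somatostatin, which restrains the others, and PP cells release pancreatic polypeptide. Granins are acidic proteins that help to build the dense-core granules in which these hormones are stored. Islets differ along the gland: those in the part of the head that develops from the ventral bud are rich in PP cells and poor in alpha cells, and the other islets are the reverse.

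The tissue was mostly exocrine by its transcripts. The 8 acinar genes examined summed to between 336198 and 488337 CPM in the baseline mice (CPM gives counts relative to the library size, here scaled with TMM factors), and the 10 islet genes together made up 0.0136% to 0.151% of the counts of a library. Libraries held 7059890 to 9567446 counts. Of the defining beta cell markers outside the 10 genes, *Mafa* and *Nkx6-1* were near 0 at baseline (medians of 0.327 and 0.488 CPM), as were the alpha cell factors *Irx1* and *Irx2* (0 and 0.138 CPM). Enterocyte markers, which would mark attached duodenum, were near 0 except in day 14 mouse 19, where the 6 found in the tables summed to 19.9 CPM against at most 3.43 CPM in every other mouse. *Fabp1* alone made up 18.05 CPM of that sum (170 counts). In the same mouse *Vil1*, *Apoa4* and *Fabp2* had 0.956, 0.531 and 0.319 CPM, each the highest of day 14. *Vil1* had a day 14 median of 0.501 CPM, and reached 0.986 CPM at baseline and 1.77 CPM at day 7. *Apoa4* (5 counts in mouse 19) was 0 in every baseline and day 7 mouse. *Fabp2* (3 counts in mouse 19) was 0 in every baseline mouse. Whether that sample held duodenum or another tissue was not tested.

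On GRCm38 the insulin genes lie apart, *Ins1* at chr19:52264297-52265476 on the plus strand and *Ins2* at chr7:142678656-142743381 on the minus strand. *Ppy* (chr11:102099930-102101319) and *Pyy* (chr11:102106676-102107832) are neighbors on the minus strand of chromosome 11. *Gcg* is at chr2:62474530-62483650 and *Sst* at chr16:23889573-23890958, both on the minus strand, and *Iapp* is at chr6:142298423-142303961 on the plus strand. The granin genes are *Chga* (chr12:102554969-102565028, plus), *Chgb* (chr2:132781278-132795079, plus) and *Scg2* (chr1:79434669-79440120, minus). All 10 are protein coding in GENCODE, and no 75-base window of their transcripts occurred in a transcript of another gene, *Ins1* and *Ins2* included, so reads of this length could be assigned to each. *Iapp* overlaps *Slco1a5* on the opposite strand, with 0 bases of exon shared.

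RefSeq held a promoter for 9 of the 10 genes on GRCm38.p6, with none for *Ins2*. The 120 bases before the start are shown for the 3 genes that held CATCTG, the core of the E-box that the islet factor NeuroD1 and its partners bind, because they encode the beta and alpha cell products on which the results turn. Capitals mark the motif, which reads CAGATG when it is on the opposite strand:
Ins1 (chr19:52264177-52264296, plus): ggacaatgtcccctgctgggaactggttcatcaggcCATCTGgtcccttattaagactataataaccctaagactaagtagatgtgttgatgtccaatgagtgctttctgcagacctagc
Iapp (chr6:142298305-142298424, plus): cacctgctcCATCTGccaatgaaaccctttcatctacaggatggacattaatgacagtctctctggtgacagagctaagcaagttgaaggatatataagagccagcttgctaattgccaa
Gcg (chr2:62483654-62483773, minus): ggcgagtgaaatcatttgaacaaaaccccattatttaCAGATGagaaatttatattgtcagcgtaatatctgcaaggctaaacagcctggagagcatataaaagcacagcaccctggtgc

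The motif was searched on both strands and began 84, 111 and 83 bases before the RefSeq start, respectively. Among all 32851 promoters in the RefSeq table, 7.05% held it within the same 120 bases. The palindrome TGACGTCA, the cyclic AMP response element bound by CREB, was found in 3 other members and in 1.24% of all promoters. It is shown here in capitals within 30 bases, because it groups the delta cell hormone with a pair of granins:
Sst (chr16:23890874-23890903, minus): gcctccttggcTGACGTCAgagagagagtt
Chgb (chr2:132781559-132781588, plus): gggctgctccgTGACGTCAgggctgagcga
Scg2 (chr1:79440076-79440105, minus): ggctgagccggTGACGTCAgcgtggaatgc

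The *Sst*, *Chgb* and *Scg2* stretches lie before the RefSeq start but inside the GENCODE span given above for each gene, because the annotated starts differ. A match describes letters in a window and is not evidence of binding in these mice.

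The insulin genes had the highest median levels of the 10 genes at baseline when levels were divided by exonic length. The median was 107 CPM per kb for *Ins2*, 98.0 for *Ins1* and 52.0 for *Iapp*, followed by 28.9 for *Gcg*. The remaining genes had medians of 1.26 (*Ppy*) to 8.13 (*Chga*) CPM per kb. The ranges of *Ins1* (31.5 to 128) and *Ins2* (34.6 to 147) overlapped, as did those of *Iapp* (17.7 to 67.4) and *Gcg* (15.2 to 82.6), whose medians stood in the other order at day 14 (70.6 and 74.7), and those of *Sst* (2.91 to 13.2), *Chga* (2.06 to 13.2) and *Scg2* (2.55 to 8.56), so these neighbors in the order do not separate beyond the spread between mice.

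All 10 genes had a higher fitted level at day 7 than at baseline, and 6 were differentially expressed genes (DEGs; adjusted *p* of at most 0.05 in edgeR and a change of at least 1.5-fold). The 6 were *Ins1*, *Ins2*, *Iapp*, *Chga*, *Chgb* and *Scg2*. Over all tested genes 3.82% were DEGs that were higher at day 7, and 5.13% were DEGs in either direction. The median log2 fold change of the 10 was 1.03, beside 0.022 over all tested genes. In bulk tissue, more cells of a type and more RNA per cell cannot be told apart. The acinar genes moved the other way: their sum was 197808 to 300987 CPM at day 7, which did not overlap the baseline range, 5 of 8 were DEGs that were lower, and 0 of 8 were higher. When the 20 most abundant genes were left out of the library totals, 6 of the 10 islet genes were DEGs (6.04% of all tested genes), with a median log2 fold change of 1.11. When the fit also held the share of reads mapped in each library, however, 0 of the 10 were DEGs at day 7 (adjusted *p* 0.487 to 0.972 in edgeR). Still, 10 of 10 were higher, with a median of 0.48, and over all genes the DEGs went from 626 to 105 (0.861%). In the study's supplement most baseline libraries had a lower mapped share than every day 7 library. That fit therefore cannot tell the mapped share and the time point apart.

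*Ins1*, the rodent-specific copy of the insulin gene, had 33.4 to 136 CPM at baseline (median 104), 118 to 352 CPM at day 7 (median 191) and 103 to 230 CPM at day 14 (median 153). Of the day 7 mice, 7 of 8 lay above every baseline mouse. The log2 fold change at day 7 was 1.04 (standard error 0.27, adjusted *p* = 0.0116). *Ins2*, the ortholog of the human insulin gene, had 45.4 to 193 CPM at baseline (median 140), 150 to 407 CPM at day 7 (median 263) and 136 to 301 CPM at day 14 (median 208). Its log2 fold change at day 7 was 0.97 (standard error 0.26, adjusted *p* = 0.0132), again with 7 of 8 mice above the baseline range. Thus the insulin genes moved by nearly the same amount, with overlap only at the low end of day 7, mouse 10.

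*Iapp*, the amyloid-forming peptide that beta cells release with insulin, had 17.3 to 65.7 CPM at baseline (median 50.7), 60.8 to 178 at day 7 (median 96.8) and 52.5 to 102 at day 14 (median 68.8). Its log2 fold change at day 7 was 1.11 (standard error 0.26, adjusted *p* = 0.00474), and 7 of 8 mice were above every baseline mouse. Baseline mouse 4 was the lowest of all 23 mice for *Ins1*, *Ins2* and *Iapp*. Without it, *Iapp* and the insulin genes remained DEGs.

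**Figure D1:**
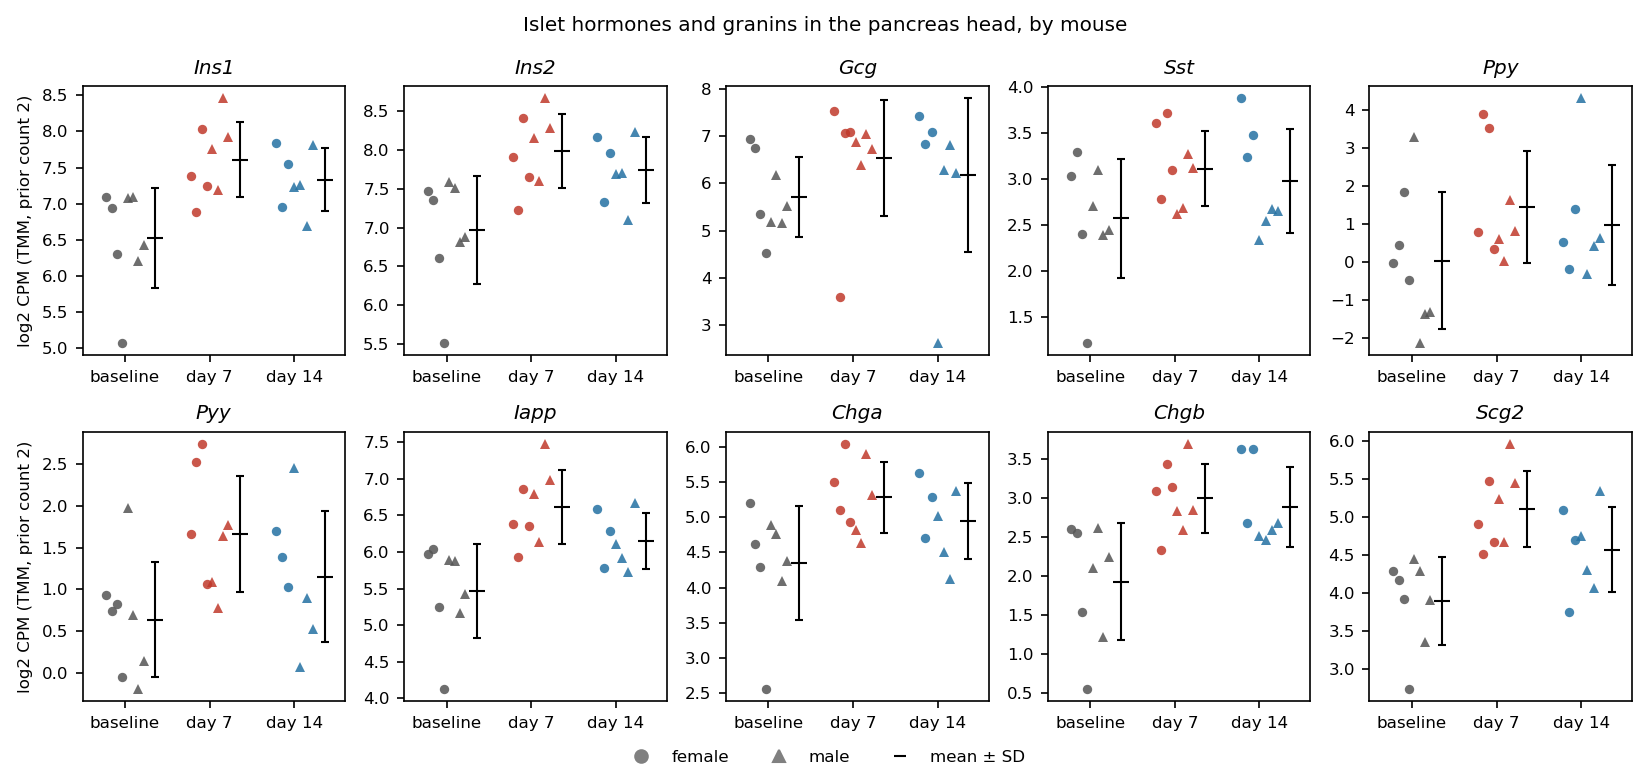
Level of each of the 10 genes in every mouse, as log2 CPM with a prior count of 2, at baseline (8 mice), day 7 (8) and day 14 (7); circles are females, triangles are males, and bars give the mean ± SD. For *Scg2* all 8 day 7 mice lie above the baseline mice, whereas *Gcg* and *Ppy* each have mice far from the rest of their group.

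Among the granins, *Scg2* (secretogranin II, the precursor of secretoneurin) separated the groups most clearly. It had 6.41 to 21.5 CPM at baseline (median 16.4) and 22.7 to 62.0 at day 7 (median 33.5), so that 8 of 8 day 7 mice were above every baseline mouse. Over all tested genes, 1.16% were higher at day 7 without overlap. The log2 fold change was 1.21 (standard error 0.27, adjusted *p* = 0.0036).

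*Chgb* (chromogranin B) had low counts, 10 to 39 per baseline mouse and 63 to 136 per day 7 mouse, or 1.23 to 5.89 CPM against 4.79 to 12.7 CPM. Its log2 fold change was 1.03 (standard error 0.29, adjusted *p* = 0.0152), and 6 of 8 day 7 mice were above the baseline range. *Chga* (chromogranin A, the precursor of pancreastatin) had 5.67 to 36.5 CPM at baseline and 24.6 to 65.5 at day 7, with 4 of 8 above the baseline range. Its log2 fold change of 0.86 (standard error 0.30) was close to the threshold, with an adjusted *p* of 0.0488. Leaving out a single mouse took *Chga* past 0.05 for 11 of the 16 mice concerned (baseline mice 2, 3, 4, 6, 7 and 8 and day 7 mice 9, 10, 11, 15 and 16), with adjusted *p* between 0.0346 and 0.116 over all 16.

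The other hormones did not pass the test at day 7. *Gcg*, which encodes glucagon and the glucagon-like peptides, had 22.7 to 123 CPM at baseline (median 43.1), 11.9 to 185 at day 7 (median 124) and 5.90 to 171 at day 14 (median 112). The groups overlapped, with 4 of 8 day 7 mice above and 1 below the whole baseline range, and the log2 fold change was 0.95 (standard error 0.49, adjusted *p* = 0.188). *Sst* (somatostatin) had 2.10 to 9.55 CPM at baseline and 5.91 to 12.9 at day 7, and the smallest log2 fold change of the 10 genes, 0.48 (standard error 0.24, adjusted *p* = 0.167).

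*Ppy* (pancreatic polypeptide) was a few counts in most mice. It had 0 to 78 counts at baseline (median 4.5), 9 to 197 at day 7 (median 14.5) and 5 to 184 at day 14 (median 11). Its log2 fold change at day 7 was 1.11 with a standard error of 1.01 (adjusted *p* = 0.474). *Pyy* (peptide YY, made in several islet cell types) had 0.645 to 3.69 CPM at baseline and 1.49 to 6.45 at day 7. Its log2 fold change of 1.06 (standard error 0.40) was as large as that of insulin but had an adjusted *p* of 0.0667 in edgeR. DESeq2 gave *Pyy* an adjusted *p* of 0.0486, and edgeR gave 0.00633 without baseline mouse 5, in which *Pyy* was the highest of its group.

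At day 14 all 10 fitted levels were still above baseline, with log2 fold changes of 0.39 (*Sst*) to 0.93 (*Chgb*) and a median of 0.69, beside 0.0062 over all genes. In edgeR 0 of the 10 were DEGs, where 0.787% of all tested genes were, and DESeq2 also called 0. The unadjusted *p* from the edgeR fit was below 0.05 for 5 genes: 0.0165 for *Ins1*, 0.0163 for *Ins2*, 0.0298 for *Iapp*, 0.00497 for *Chgb* and 0.0248 for *Scg2*. The smallest adjusted *p* was 0.134, for *Chgb*. Against day 7, the 10 genes had log2 fold changes of -0.53 (*Scg2*) to -0.089 (*Sst*), and 0 were DEGs (0.377% of all genes; smallest adjusted *p* 0.377 in edgeR; 0 unadjusted *p* below 0.05, the smallest being 0.058). The comparisons with baseline share the 8 baseline mice, so that a low baseline mouse enters both. Scaling by total counts raised the median log2 fold change of all genes to 0.475 at day 7 and to 0.219 at day 14. It gave 9 and 6 DEGs among the 10, where 30.3% and 3.67% of all tested genes were DEGs. The medians of the 10 genes, 1.49 and 0.92, stood above these medians of all genes by about as much as with TMM.

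**Figure D2:**
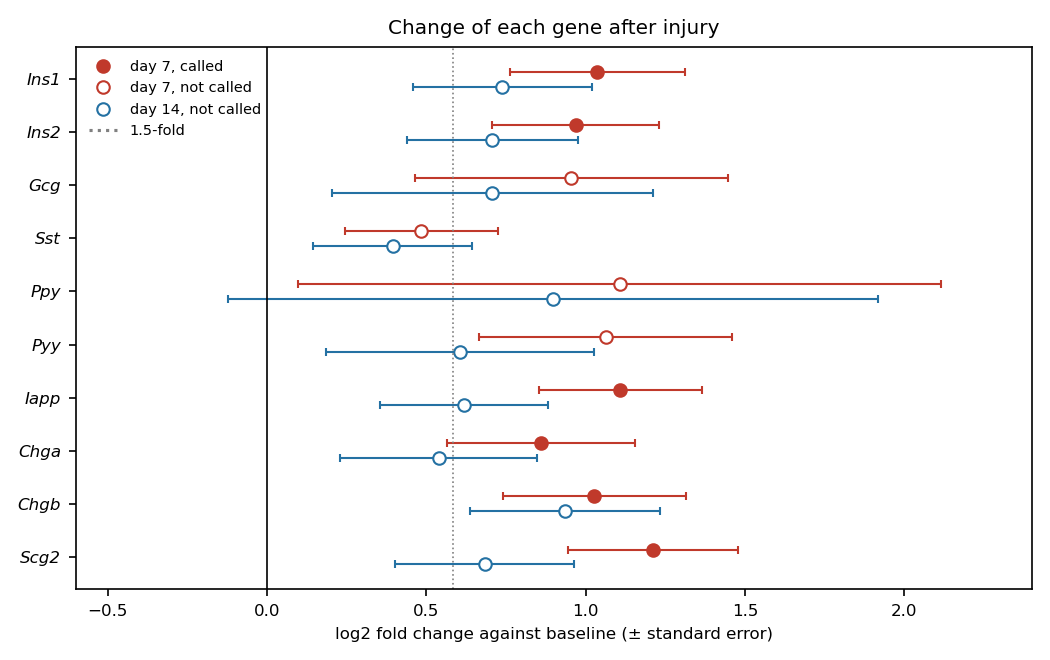
Log2 fold change against baseline at day 7 (red) and day 14 (blue) for each gene, with standard errors derived from the edgeR test; filled points are DEGs, open points are not, and the dotted line marks 1.5-fold. Every point lies above 0, the 6 filled points are all from day 7, and *Ppy* has the widest errors.

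A ratio of counts within a mouse does not depend on how libraries are scaled, so hormones and granins were set against the sum of *Ins1* and *Ins2* counts (per 100 insulin counts; ratios of counts, not of molecules). The beta cell products kept nearly fixed proportions. *Iapp* ran from 16.6 to 23.4 per 100 insulin counts over all 23 mice, a 1.41-fold range, and the ratio of *Ins1* to *Ins2* ran from 0.657 to 0.864, a 1.32-fold range. *Scg2* ran over a 1.84-fold range (4.62 to 8.49), *Chga* over a 2.27-fold range (5.62 to 12.8) and *Chgb* over a 2.45-fold range (1.13 to 2.77). *Sst* was near these granins, with a 2.90-fold range (1.15 to 3.34). The widest ranges were those of *Pyy*, from 0.227 to 2.06 (9.09-fold), *Gcg*, from 1.65 to 46.6 (28.2-fold), and *Ppy*, from 0 (0 counts beside 1836 insulin counts in baseline mouse 6, which allows up to 3) to 5.52.

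Of 27 comparisons of these ratios between time points, 0 had an adjusted *p* of at most 0.05 in exact two-sided permutation tests, whose smallest possible *p* was 1.55e-04, and 3 had an unadjusted *p* below 0.05. *Scg2* per insulin was lower at day 14 than at day 7 by a log2 difference of -0.28 (95% interval -0.50 to -0.076, exact permutation *p* = 0.00559, adjusted *p* = 0.0797), with 5 of 7 day 14 mice below every day 7 mouse. For *Iapp* the same comparison gave -0.20 (-0.33 to -0.074, exact permutation *p* = 0.00591, adjusted *p* = 0.0797). *Sst* per insulin differed by -0.50 between day 7 and baseline (-0.90 to -0.093, exact permutation *p* = 0.0188, adjusted *p* = 0.169). The medians of *Sst* were 2.64, 1.98 and 2.5 per 100 insulin counts at baseline, day 7 and day 14. When the labels were permuted within each sex, *Sst* at day 7 and *Scg2* between the days had an adjusted permutation *p* of 0.0386 each. Without day 14 mouse 24 the adjusted permutation *p* for *Scg2* was 0.045.

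For *Gcg* per insulin the design left wide limits. The difference at day 7 was -0.21 on the log2 scale (95% interval -1.11 to 0.61, exact permutation *p* = 0.651) and at day 14 it was -0.32 (-1.67 to 0.81, exact permutation *p* = 0.749). The corresponding differences for *Ppy* were 0.68 (-1.42 to 2.80) and 0.41 (-1.78 to 2.67), and for *Pyy* they were 0.049 (-0.71 to 0.84) and -0.24 (-1.12 to 0.64). Changes of several fold in the ratio of *Ppy* to insulin in either direction lie inside these intervals.

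**Figure D3:**
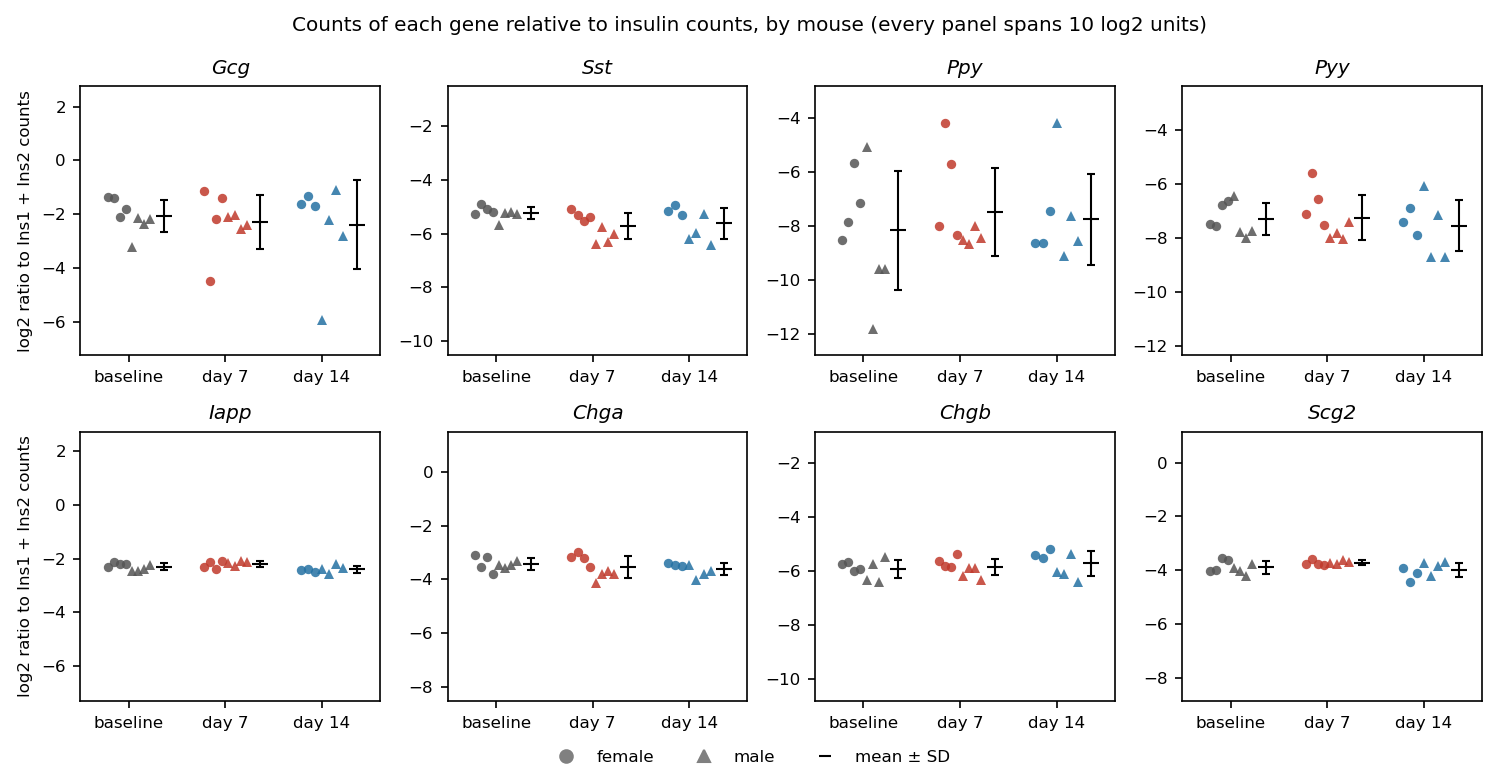
Log2 ratio of the counts of each gene to the sum of *Ins1* and *Ins2* counts (0.5 added to both) in every mouse at baseline, day 7 and day 14, with circles for females, triangles for males and bars for mean ± SD; every panel spans 10 log2 units. *Iapp* and *Scg2* lie in narrow bands, and *Gcg* and *Ppy* spread widely within each time point.

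In 3 mice, 1 from each group, glucagon was low and pancreatic polypeptide high in proportion to insulin. Baseline *Ppy* was also spread toward low values, with 0 counts in mouse 6 and 1 count each in mice 7 and 8. The lowest *Gcg* per 100 insulin counts in each group was 10.9 in baseline mouse 5, 4.43 in day 7 mouse 10 and 1.65 in day 14 mouse 21. The same 3 mice had the highest *Ppy* per 100 insulin counts of their groups, 2.92, 5.48 and 5.52, where the group medians were 0.324, 0.334 and 0.252. Their *Pyy* per 100 insulin counts was also the highest of each group, 1.12, 2.06 and 1.47. In mouse 21 there were 184 *Ppy* counts and 55 *Gcg* counts, or 0.299 *Gcg* counts per *Ppy* count, whereas day 14 mouse 18 had 1043 *Gcg* counts and 6 *Ppy* counts. High *Ppy* also occurred without low *Gcg*: day 7 mouse 11 had 103 *Ppy* counts and 22.1 *Gcg* per 100 insulin counts, and baseline mouse 3 had 1.92 *Ppy* and 23.2 *Gcg* per 100 insulin counts. *Ins1* plus *Ins2* had 2669, 3592 and 3332 counts in mice 5, 10 and 21. By CPM of *Ins2*, mouse 5 was the highest of its group (193) and mouse 10 the lowest (150), and mouse 21 had 207 beside a median of 208.

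Lymphocyte transcripts moved with this pattern. The 7 lymphocyte genes found in the tables, among them the B cell genes *Cd79a*, *Cd79b* and *Ms4a1*, summed to 55.8, 95.3 and 58.3 CPM in mice 5, 10 and 21. Day 7 mouse 15 had 55.7 CPM with 0.381 *Ppy* and 17.4 *Gcg* per 100 insulin counts. The other 19 mice had 0.174 to 15.8 CPM, and mouse 11 had 1.45 CPM. Over the groups the lymphocyte sum ran up to 55.8 CPM at baseline, 95.3 CPM at day 7 and 58.3 CPM at day 14, and none of the 7 genes was at 0 in all mice of a group. The part of these cell types, or of the place where each head was cut, in the hormone ratios was not tested.

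Without the 4 mice above 50 CPM, a set chosen after the data were seen, 7 of the 10 genes were DEGs at day 7 (4.64% of all tested genes) and 0 at day 14 (0.995%), with medians of 1.03 and 0.73. *Gcg* and *Pyy* then passed the test at day 7, with log2 fold changes of 1.02 (adjusted *p* = 0.0361) and 1.36 (adjusted *p* = 0.00229) in edgeR, and *Chga* did not (0.86, adjusted *p* = 0.0973). In proportion to insulin, 3 of these 4 mice also had the lowest *Gcg* and the highest *Pyy* of their groups. The results without these mice are therefore no independent evidence on *Gcg* or *Pyy*. The *Gcg* to insulin ratio differed from baseline by 0.036 at day 7 and 0.11 at day 14 on the log2 scale without them.

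**Figure D4:**
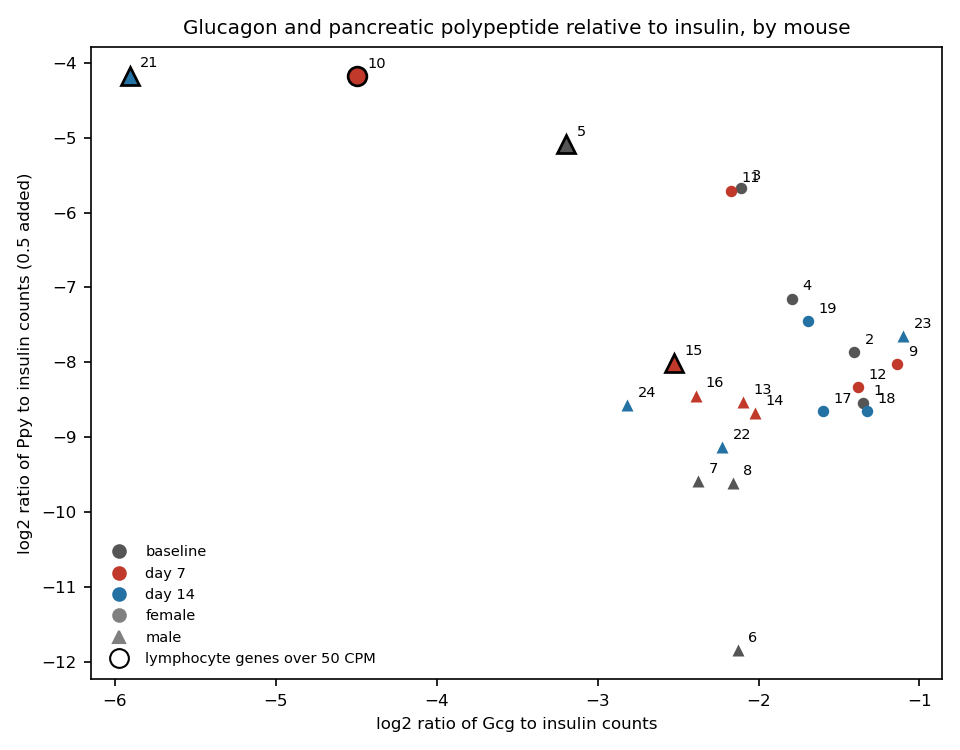
Log2 ratio of *Ppy* to insulin counts against that of *Gcg* to insulin counts in each of the 23 mice, numbered as in the labels and colored by time point; circles are females, triangles males, and large outlined symbols have more than 50 CPM of lymphocyte genes. Mice 5, 10 and 21, 1 from each time point, lie at the upper left, and mouse 6 at the bottom had 0 *Ppy* counts.

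The genes also differed in how they varied together between mice of the same time point. With log2 CPM centered within each time point (23 mice), *Ins2* was correlated with *Ins1* (r = 0.99, rho = 0.98), *Iapp* (0.97, 0.93), *Scg2* (0.92, 0.94), *Chga* (0.88, 0.84), *Chgb* (0.80, 0.72) and *Sst* (0.68, 0.54). The adjusted permutation *p* of r was at most 0.00261 and that of rho at most 0.0158 for these 6, over 9 relations. *Gcg* had r = 0.42 (adjusted permutation *p* = 0.0404) but rho = 0.33 (adjusted permutation *p* = 0.178), *Pyy* had 0.30 and 0.31 (adjusted permutation *p* of 0.197 and 0.187) and *Ppy* had 0.097 and 0.23 (0.69 and 0.32). Without mice 4 and 15, farthest from the *Ins2* median, r was 0.99 for *Ins1*, 0.95 for *Iapp*, 0.89 for *Scg2*, 0.80 for *Chga*, 0.68 for *Chgb*, 0.52 for *Sst*, 0.37 for *Gcg*, 0.24 for *Pyy* and 0.063 for *Ppy*. These values share each library's scaling.

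Outside insulin, *Chgb* was closest to *Sst* (r = 0.87, rho = 0.83, adjusted permutation *p* of 4.5e-05 and 4.09e-05 over 45 pairs), and *Ppy* to *Pyy* (r = 0.81, rho = 0.68, adjusted permutation *p* of 7.5e-05 and 0.0017). Without the 2 mice farthest from the median, r was 0.79 for the first pair and 0.68 for the second. *Gcg* with *Ppy* had r = -0.54 (adjusted permutation *p* = 0.0312) but rho = -0.094 (adjusted permutation *p* = 0.683), and r was -0.076 without mice 10 and 21, so this relation rested on those mice. *Gcg* with *Pyy* had r = -0.30 but rho = 0.11 (adjusted permutation *p* of 0.239 and 0.662), and r was 0.30 without mice 10 and 21. *Gcg* with *Sst* had r = 0.64 and rho = 0.74 (adjusted permutation *p* of 0.00121 and 4.5e-04), and r = 0.79 without mice 10 and 21.

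**Figure D5:**
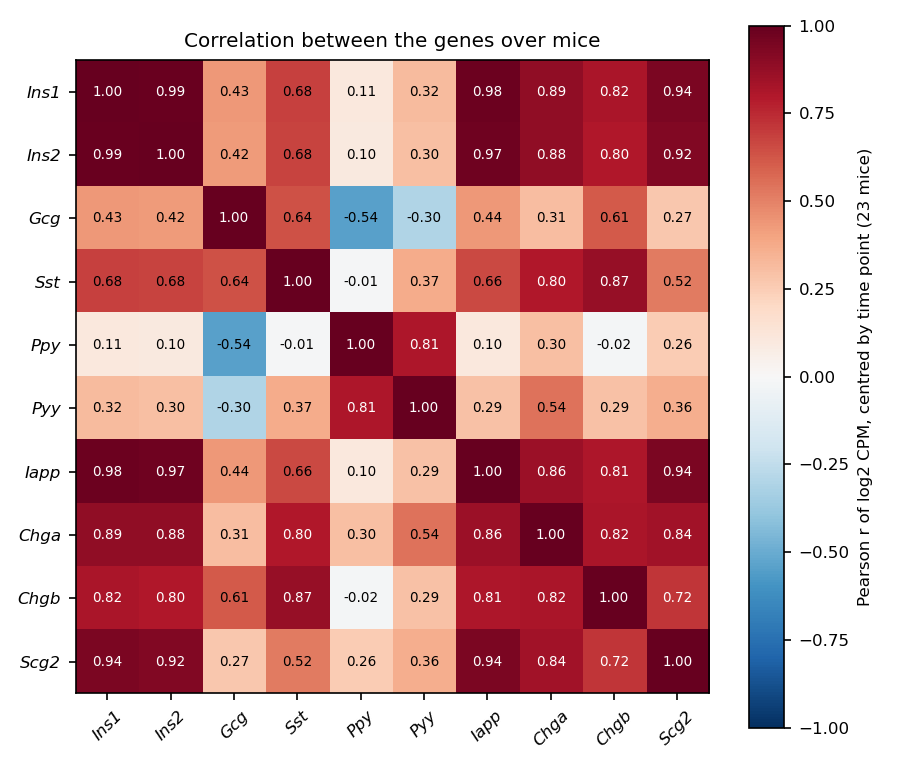
Pearson r between each pair of the 10 genes over 23 mice, from log2 CPM centered within time point; red is positive and blue negative. The insulin genes, *Iapp* and *Scg2* form a block of r from 0.92 to 0.99, and *Ppy* and *Pyy* pair with each other. Their r with *Gcg* is below 0, but without mice 10 and 21 it was -0.076 for *Ppy* and 0.30 for *Pyy*.

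Among the 12185 other tested genes, those most like *Ins2* over the 23 mice were *Slc30a8*, the zinc transporter of insulin granules (r = 0.93), the prohormone convertase *Pcsk2* (0.91), *Scg3* (0.84), the insulin receptor-related *Insrr* (0.84), *Sphkap* (0.83), *G6pc2*, the islet glucose-6-phosphatase (0.82), *Hint3* (0.81) and *Slc7a14* (0.81). Those most like *Gcg* were *Pappa2* (0.89), *Sim1* (0.89), *Map3k15* (0.82), *Pdxdc1* (0.82), *Mpzl2* (0.78), *Dbpht2* (0.78), *Krt7* (0.77) and *Frk* (0.76). With total count scaling *Pdxdc1* had r = 0.46, *Frk* 0.56 and *Hint3* 0.72, whereas *Slc30a8*, *Pcsk2*, *Pappa2* and *Sim1* had 0.88 to 0.92. These likenesses are descriptions without a test. Those to *Gcg* were not computed without mice 10 and 21, whose *Gcg* lay far below the rest of their groups.

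Other genes of the islet were compared with the 10 at day 7. Of 12 beta cell genes, 8 were tested and 3 were DEGs, all higher: *G6pc2* (log2 fold change 1.45, adjusted *p* = 0.00271), the glucose transporter *Slc2a2* (0.83, adjusted *p* = 0.00132) and the peptide *Ucn3* (1.03, adjusted *p* = 0.0463). The median of the 8 was 0.32, and *Pdx1*, *Ero1lb* and *Glp1r* had values of -0.32 to -0.090. *Ero1lb*, an oxidoreductase of insulin folding, had a median of 1047 CPM at baseline and so made up most of this list's summed level. The baseline median of *Ins2* itself was 140 CPM. Of 6 alpha cell genes tested, the vitamin D-binding protein *Gc* was higher (1.85, adjusted *p* = 0.0128), with 8 of 8 mice above the baseline range. The glutamine transporter *Slc38a5*, at 149 to 268 CPM in baseline mice, was lower (-0.76, adjusted *p* = 8.05e-06). Its baseline median of 193 CPM was above that of *Gcg* (43.1 CPM). In bulk tissue the cells that carried *Slc38a5* and *Ero1lb* cannot be told, so their values need not be those of islets. None of 3 tested delta cell genes was a DEG. Of these *Hhex* had a log2 fold change of 0.57 (adjusted *p* = 0.0539 in edgeR) and an unadjusted *p* of 0.0103.

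Islet transcription factors and the enzymes that cut prohormones showed a similar mix. Of 5 tested regulators, *Isl1* (0.87, adjusted *p* = 0.0354) and *Rfx6* (1.06, adjusted *p* = 0.0142) were higher. *Pax6* (0.56, adjusted *p* = 0.109), *Nkx2-2* (-0.057, adjusted *p* = 0.849) and *Foxa2* (-0.11, adjusted *p* = 0.47), the most abundant of the 5, did not pass. Of 7 processing genes, *Pcsk2* (0.79, adjusted *p* = 0.0254), carboxypeptidase E (*Cpe*, 0.89, adjusted *p* = 7.54e-04) and the *Pcsk2* chaperone *Scg5* (0.79, adjusted *p* = 0.0416) were higher. *Cpe* was higher than the whole baseline range in 8 of 8 mice. The convertase *Pcsk1* had 0.078 (adjusted *p* = 0.777), and *Pam* and *Cpd*, the most abundant of the 7, had -0.17 and -0.18 (adjusted *p* of 0.132 and 0.343). *Pcsk1n* had 1.28 (adjusted *p* = 0.0539), and the median of the list was 0.79. Of 11 other granule genes tested, *Scg3* (0.86, adjusted *p* = 0.0231) and the synaptotagmin *Syt4* (1.35, adjusted *p* = 0.00331) were higher. *Ptprn2* (phogrin), at 177 to 239 CPM in baseline mice, was lower (-0.77, adjusted *p* = 5.11e-07). Its baseline median of 216 CPM was above that of *Ins2* (140 CPM), and the cells that carried it cannot be told in bulk tissue. The vesicle protein *Vamp2* had -0.41 with an adjusted *p* of 0.0186, short of 1.5-fold, and the median of the 11 was 0.077, with 6 above and 5 below 0. At day 14 none of the genes in these lists was a DEG against baseline in edgeR, and *Gc* had a log2 fold change of 1.92 (adjusted *p* = 0.0668; unadjusted *p* = 0.00128). That value rested largely on day 14 mouse 19, which had 47.7 CPM of *Gc* where the next highest day 14 mouse had 9.66. Without it, an alternative added after the data were seen, *Gc* had a log2 fold change of 0.98 (adjusted *p* = 0.0713 in edgeR). The same mouse was also the highest of its group for *Ttr* (47.6 CPM) and *Rbp4* (9.87 CPM), listed here with the alpha and delta cell genes, as it was for *Fabp1*.

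Receptors for the islet hormones did not pass the test. Of 17 listed, 5 were tested, and 0 were DEGs at either day in edgeR. At day 7 the insulin receptor *Insr* had a log2 fold change of -0.21 (unadjusted *p* = 0.0134, adjusted *p* = 0.0646) and *Igf1r* had -0.087 (adjusted *p* = 0.436). Of the 5 gut peptide hormones found in the tables, 0 had enough counts to be tested, and they summed to at most 2.22 CPM in any mouse. Fibroblast and macrophage genes also rose at day 7: 6 of 6 and 5 of 6 were higher DEGs, and at day 14 *Lum* and *Pdgfra* alone of these 12 were. Of 8 duct genes, *Krt7* and *Spp1* were higher DEGs at day 7. The part of these cell types in the share of islet transcripts was not tested.

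Males and females were compared within and across the time points. None of the 10 genes was a DEG between the sexes at baseline, at day 7, at day 14 or over all time points, where 0.0928%, 0.0696%, 0.0619% and 0.232% of 12933 genes were. *Sst* had the smallest adjusted *p*, 0.472 over all time points (log2 fold change of males over females -0.47, unadjusted *p* = 0.0258 in edgeR). At day 14 *Sst* was 9.23 to 14.4 CPM in the 3 females and 4.83 to 6.14 CPM in the 4 males (log2 fold change -1.03, unadjusted *p* = 0.00462, adjusted *p* = 0.48 in edgeR). The share of all genes whose ranges also lay apart between these few mice was not counted. The change after injury also did not differ between the sexes past the threshold for any of the 10 (edgeR's smallest adjusted *p* among them was 0.945 for day 7 and 0.9999 for day 14; over all genes 0.00773% and 0% passed). For *Sst* this interaction at day 14 was -1.05 (unadjusted *p* = 0.0343).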

How the data were processed

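RNA of each pancreas head was depleted of ribosomal RNA and sequenced as stranded paired-end 75 bp reads. Per the submitters' processing notes, FastQC, Trim Galore, cutadapt, STAR 2.5.2a and featureCounts were used with mm10; the annotation release and the strand setting are not given in the sources used here. The deposited files hold whole-number fragment counts per gene symbol, 1 file for each of 23 mice. Mouse 20 is not analysed here. Samples were grouped by the labels' time point and sex.

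Counts were tested with edgeR 4.0.16 (R 4.3.3, limma 3.58.1): TMM, filterByExpr by group, glmQLFit (robust) and glmQLFTest in 1 fit of 23 mice with sex as a covariate. Sexes and their interaction with time were tested with a coefficient for each of 6 groups. Adjusted *p* is Benjamini-Hochberg over the genes tested. Standard errors restate the test (log2 fold change over the root of F). Ratios were log2 of counts with 0.5 added, compared by exact two-sided permutation and adjusted over 27 tests; their 95% intervals invert that test. Correlations had 100000 permutations within time point, over 9 relations with *Ins2*; all 45 pairs, and the exclusion of mice by lymphocyte genes, were added after the data were seen. A share under 3 counts (3.14e-05% to 4.25e-05% of a library) was taken as not detectable; this covers counting error only. Positions are from GENCODE vM21 (GRCm38), of the files' build.

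Named genes are the 10 members, DEGs of each fixed list and otherwise up to 3 of its genes with the highest mean count, and the 8 genes most like *Ins2* and *Gcg*; others named (*Mafa*, *Nkx6-1*, *Irx1*, *Irx2*, the tested genes of short lists) were chosen as defining markers or after their values were seen. The members and lists were chosen with earlier results of these data known. Alternatives were DESeq2 1.42.0, its size factors, total count scaling with and without the 20 most abundant genes, other filters (none, or 10 counts in every mouse), other covariates (the mapping rates are those of the study's supplement), fits of 2 groups, each mouse left out, pseudocounts of 0.1 and 2, other denominators and permutation within sex. The scripts were tested on simulated data. Python 3.11.15, scipy 1.17.1, numpy 2.4.6, matplotlib 3.10.9 and pandas 2.3.3 were used.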

Additional observations from a re-analysis of the deposited data

Results flagged for a closer look

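In groups of 7 or 8 mice, the gap between the most extreme mouse and its nearest neighbor was compared with the whole range of the group by Dixon's 95% critical values. Of 57 groups examined (10 genes and 9 ratios at 3 time points), 10 held such a mouse; chance gives about 1 in 20, and the groups are not independent. Baseline mouse 4 was the lowest of its group for *Ins1* (log2 CPM 5.07, next 6.21), *Sst* (1.22, next 2.39), *Iapp* (4.13, next 5.16) and *Chga* (2.56, next 4.10). Its ratios to insulin did not stand apart. Day 7 mouse 10 was lowest for *Gcg* (log2 CPM 3.60, next 6.39) and for *Gcg* to insulin (log2 ratio -4.49, next -2.53). Day 14 mouse 21 was lowest for *Gcg* (2.62, next 6.22) and *Gcg* to insulin (-5.91, next -2.82) and highest for *Ppy* (4.32, next 1.42) and *Ppy* to insulin (-4.17, next -7.45). The difference between the sexes in the change after injury was tested for all 10 genes and passed for none of them in edgeR.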

How the results depend on the processing

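No paired analysis was possible because the mouse numbers of the labels are not shared between the groups. At day 7 the number of DEGs among the 10 genes was 5 to 7 with each mouse left out. It was 0 with the mapping rate as a covariate, which is largely confounded with the time point. At day 14 it was 6 with total count scaling, and between the days 2 (*Iapp* and *Scg2*; 3.88% of all tested genes); it was 0 in both with each mouse left out. For the ratios, 2 of 27 passed when permuted within sex, and 0 to 1 with each mouse left out, the 1 being *Scg2* without day 14 mouse 24. *Chga* at day 7 was not a DEG with DESeq2's size factors (adjusted *p* = 0.0514), no filter (0.0707) or the 2-group fit (0.0777), all in edgeR. The cause of these changes was not tested.

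Direction changed in the following cases, of which none had passed its test. *Ppy* between the days was 0.22 with the mapping rate and 0.0076 in the 2-group fit, and -1.71 to 0.30 with a mouse left out; at day 14 it was -0.86 (without mouse 21) to 2.48. *Chgb* between the days was -0.23 to 0.073 (positive without mouse 15), and 0.012 without the 4 mice highest in lymphocyte genes. With a pseudocount of 2, the ratio of *Ppy* at day 14 was -0.039, that of *Pyy* at day 7 -0.11 and that of *Chgb* at day 7 -0.015. With *Iapp* as denominator, *Gcg* and *Chga* between the days were 0.098 and 0.13, *Pyy* and *Chgb* at day 7 -0.047 and -0.045, and *Scg2* at day 14 0.0032. Without the 4 mice, *Gcg* was 0.036, 0.11 and 0.073 in the 3 comparisons, *Chgb* at day 7 -0.0081 and *Ins1* to *Ins2* between the days 0.016. With a mouse left out, *Gcg* was -0.38 to 0.10 at day 7, -0.53 to 0.27 at day 14 and -0.42 to 0.48 between the days; *Ppy* -0.18 to 0.85 at day 14 and -0.86 to 0.21 between the days; *Pyy* -0.19 to 0.17 and *Chgb* -0.021 to 0.12 at day 7; and *Chga* -0.16 to 0.0067 between the days. Low counts, with baseline medians of 4.5 and 9 per mouse, limit *Ppy* and *Pyy*.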

Other observations

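*Ppy* was added as an anchor after the data were seen. The genes outside the 10 that were most like *Ppy* over the 23 mice were *Acp5* (r = 0.82), *Sema4d* (0.81), *Satb1* (0.80), *Kcna2* (0.80), *Cxcl12* (0.78), *Cldn5* (0.77), *Pitpnm1* (0.77) and *Snx29* (0.77). The r values of these 8 were 0.77 to 0.82 with total count scaling. *Ppy* was highest in mice 5, 10, 11 and 21 (9.60, 14.7, 11.5 and 19.7 CPM), and r without these mice was not computed. By the spread of log2 CPM between mice of a time point, *Ppy* varied more than 99.5% and *Gcg* more than 98.9% of the tested genes, with an SD of 1.63 and 1.26, and the other 8 genes had an SD of 0.53 (*Iapp*) to 0.72 (*Pyy*). In the order of likeness to *Ins2* among all tested genes, *Ins1* stood at place 1, *Iapp* at 2, *Scg2* at 4, *Chga* at 6, *Chgb* at 13, *Sst* at 29, *Gcg* at 427, *Pyy* at 1211 and *Ppy* at 3992.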
